A study of Mus musculus with 2 samples.

Results

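Interferon-induced genes were followed through the stromal cells of mouse pancreatic tumours, as 37 genes chosen by name from knowledge of the pathway. Earlier results of these data were known when the genes were chosen. The deposited matrices, which list 31054 features, held a row for 36 of them, and Mx2 was not analysed here. The members were kept in 3 groups: 24 led by type I interferon (Isg15, Ifit, Oas and Oasl genes and the like), 8 led by interferon gamma (Gbp2, Gbp3, Gbp4, Gbp5, Gbp7, Iigp1, Igtp and Irgm1) and 4 others (Irf1, Irf8, Ifitm3 and Bst2). The tumours were allografts of pancreatic ductal adenocarcinoma in mice of genotype p16-CreERT2/R26-LSL-tdTomato. In these mice a drug-inducible Cre made from the p16 locus removes a stop before tdTomato, so the reporter marks cells that expressed p16 during induction and their descendants, whether or not they still express it. Both groups came from this genotype and were sorted from enzyme-dissociated tumours of PBS-perfused mice, one as tdTomato positive (Tom positive) and one as tdTomato negative (Tom negative) cells. Age, the number of mice and the time of induction were not given in the sources used here. Each group is 1 single-cell library, so no difference between the groups was tested, and every 95% interval covers counting error only.

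Type I interferons (the alpha and beta forms) signal through Ifnar1 and Ifnar2 and the kinases Jak1 and Tyk2 to a complex that holds Stat2 and Irf9 and binds interferon-stimulated response elements. Interferon gamma, made mainly by T and NK cells, signals through Ifngr1 and Ifngr2 and leads to binding at gamma-activated sites. The induced genes overlap, and the Gbp and immunity-related GTPase genes also respond to type I interferon, so the split into type I-led and gamma-led names the usual leading signal only. In tumours, such genes are known from innate sensing of nucleic acids and from T cell activity.

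Promoter sequence of the members was read from RefSeq on the build GRCm38.p6, the assembly also called mm10. Of the 36 members, 28 were matched in its promoter table, which holds the 300 bases from 250 before to 50 after each start. Searched on both strands, the core of the response element, GAAANNGAA, was found in 11 of 18 type I-led members, 6 of 6 gamma-led members and 2 of 4 others, against 9.76% of all 27025 genes of the table. The gamma-activated site, TTCNNNGAA, was found in 2 of 18, 3 of 6 and 4 of 4, against 9.55% of all genes. In the 250 bases before the start alone, the first was in 9 of 18, 6 of 6 and 1 of 4 (8.18% of all genes), and the second in 2 of 18, 3 of 6 and 3 of 4 (8.13%). Shown are the 120 bases before the start of 3 type I-led and 3 gamma-led members, chosen as those with the highest level in the fibroblast or macrophage class among the members with a match there. They are written 5′ to 3′ on the strand of the gene, with every match in capitals.
Ifih1: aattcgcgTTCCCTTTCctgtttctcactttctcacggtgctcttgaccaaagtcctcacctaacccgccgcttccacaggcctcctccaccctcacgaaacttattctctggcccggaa
Isg15: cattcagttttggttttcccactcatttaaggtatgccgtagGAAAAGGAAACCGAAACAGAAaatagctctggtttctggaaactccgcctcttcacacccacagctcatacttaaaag
Oas1a: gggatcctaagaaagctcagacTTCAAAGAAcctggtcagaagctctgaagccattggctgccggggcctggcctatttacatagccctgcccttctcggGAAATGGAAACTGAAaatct
Gbp7: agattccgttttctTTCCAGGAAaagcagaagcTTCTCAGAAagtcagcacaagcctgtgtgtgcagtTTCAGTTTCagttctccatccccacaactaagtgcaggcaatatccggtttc
Gbp2: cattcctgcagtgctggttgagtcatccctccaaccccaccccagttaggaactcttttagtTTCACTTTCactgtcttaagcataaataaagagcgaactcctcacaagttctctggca
Gbp3: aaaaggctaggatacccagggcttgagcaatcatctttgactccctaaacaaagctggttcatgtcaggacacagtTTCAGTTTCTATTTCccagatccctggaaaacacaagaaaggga
Isg15 (chr4:156200819-156200938, minus strand) held 3 overlapping matches to the response element core, which begin 78, 72 and 66 bases before the start. Oas1a (chr5:120907526-120907645, minus strand) held 2 that overlap, 20 and 14 bases before it, and a gamma-activated site at 98. In Gbp7 (chr3:142530216-142530335, plus strand) 1 core match stood 52 bases before the start and 2 gamma-activated sites stood at 106 and 87. Gbp2 (chr3:142620543-142620662) and Gbp3 (chr3:142559924-142560043), both on the plus strand, held 1 and 2 core matches, and Ifih1 (chr2:62646256-62646375, minus strand) held 1. These are matches of letters and not measured binding.

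The libraries held 7568 and 13604 barcodes with 128275546 and 164646314 unique molecular identifiers (UMIs), Tom positive first here and throughout. After filtering, 4302 and 6580 cells remained, at median depths of 24191 and 20611 UMIs. The same 3660 barcode sequences occurred in both libraries, and 234 and 1233 kept cells were doubted, because the other library held their barcode with far more UMIs or both held it with few. Most lay in shallow clusters that are not among the populations described. Among those described, they included 118 of 237 Tom negative and 1 of 509 Tom positive blood endothelial-like cells, and 51 of 2516 and 7 of 1552 fibroblast-like cells. Clusters were built without the members, named as classes from marker genes, and their subsets are called by 3 of their marker or leading genes. The reporter transcript stood at 407 and 17.01 CPM (counts of a gene scaled to equal UMI totals, with the same denominator for all genes) in fibroblast-like, 1091 and 39.8 in macrophage-like and 1375 and 103 in neutrophil-like cells, but at 209 and 107 CPM in blood endothelial-like cells, the smallest difference of these 4.

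**Figure D1:**
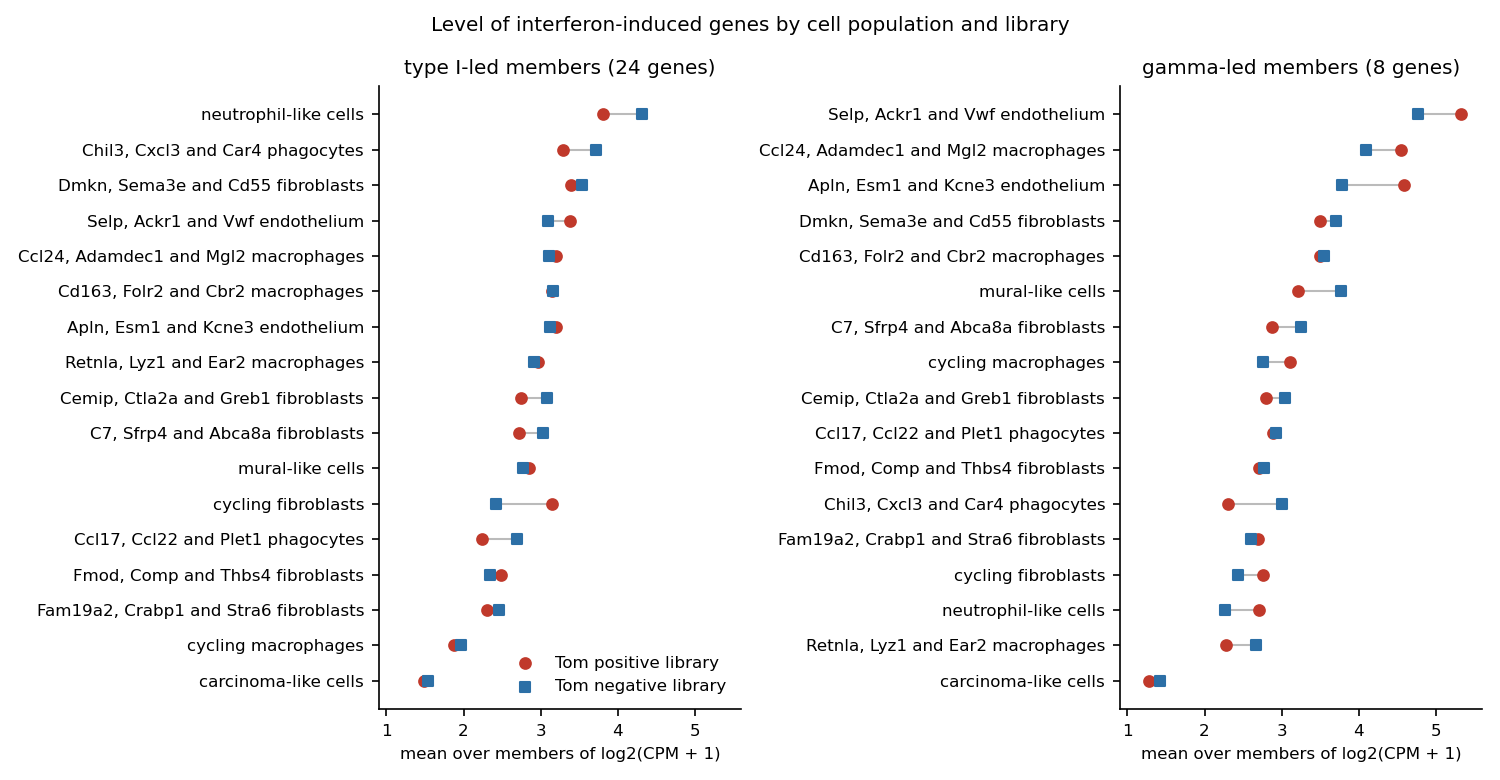
Mean over members of log2(CPM + 1) in each cell population for the 24 type I-led (left) and 8 gamma-led (right) members, with Tom positive as red circles and Tom negative as blue squares. Neutrophil-like cells lead the left panel in both libraries, endothelium marked by Selp leads the right panel, and carcinoma-like cells are lowest of the plotted populations in both (T or NK-like and lymphatic cells are not plotted).

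T or NK-like and lymphatic cells fell under 500000 summed UMIs in at least 1 library and were not ranked. Carcinoma-like cells passed that limit but were also left out. Levels were ranked over 16 populations with 500000 or more summed UMIs in both libraries. Of these, neutrophil-like cells stood highest for type I-led members, and endothelium marked by Selp, Ackr1 and Vwf, genes of veins that recruit leukocytes, stood highest for gamma-led members. The mean of log2(CPM + 1) over the 24 type I-led members was 3.82 and 4.31 in neutrophil-like cells. It was next highest in phagocytes marked by Chil3, Cxcl3 and Car4 in the Tom negative library (3.72, and 3.29 in Tom positive) and in fibroblasts marked by Dmkn, Sema3e and Cd55 in the Tom positive library (3.39, and 3.54 in Tom negative). Over the 8 gamma-led members the mean was 5.33 and 4.78 in Selp endothelium, 4.59 and 3.79 in endothelium marked by Apln, Esm1 and Kcne3, and 4.55 and 4.09 in macrophages marked by Ccl24, Adamdec1 and Mgl2. Neutrophil-like cells, first for type I-led members, stood at 2.71 and 2.27 for gamma-led ones. Of the unranked populations, T or NK-like cells held 2.09 and 1.54 for type I-led and 4.52 and 4.43 for gamma-led members. Tom negative lymphatic endothelial-like cells held 4.33 for type I-led members against 2.59 in Tom positive, but on 33 cells, 21 of them doubted, of which 1 held 144 of the 350 type I-led UMIs.

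Epithelial or carcinoma-like cells, 29 and 42 in number, stood below all 16 ranked populations, with 1.49 and 1.54 for type I-led and 1.28 and 1.43 for gamma-led members. Free RNA was low for myeloid genes in fibroblast-like cells, where the macrophage gene C1qa stood at 7.33 and 15.3 CPM and the neutrophil gene S100a8 at 3.32 and 18.99 CPM. Between the libraries, the order of the 16 ranked populations had a Spearman coefficient of 0.85 for type I-led and 0.81 for gamma-led members. Between type I-led and gamma-led members it was 0.27 within Tom positive and 0.36 within Tom negative. These coefficients describe 16 points that share a library and are not a test.

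Of the 36 members, 32 reached 10 CPM in some ranked population of each library, and Ifit3b, Mx1, Cmpk2 and Igtp did not. Selp endothelium held the highest level of 9 of the 32 in both libraries (Irf9, Stat2, Ifi44, Ddx58, Gbp4, Gbp5, Iigp1, Irf1 and Ifitm3), where 7.19% of 11604 genes had their highest level. Neutrophil-like cells held 7 of the 32 (Isg15, Ifit1, Oas2, Oas3, Oasl2, Usp18 and Rtp4), where 9.73% of genes did. In Selp endothelium the first place was apart from the second by more than counting error in both libraries for Stat2, Iigp1 and Ifitm3. In neutrophil-like cells this held for Isg15, Oasl2, Usp18 and Rtp4. For the other members named it did not hold in both libraries. Dmkn fibroblasts were highest for Irf7 and Zbp1 (beside 3.66% of genes), and Ccl24 macrophages for Gbp7 and Irf8 (2.64%). Cd163 macrophages were highest for Oas1a (2.43%) and Apln endothelium for Xaf1 (4.86%).

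**Figure D2:**
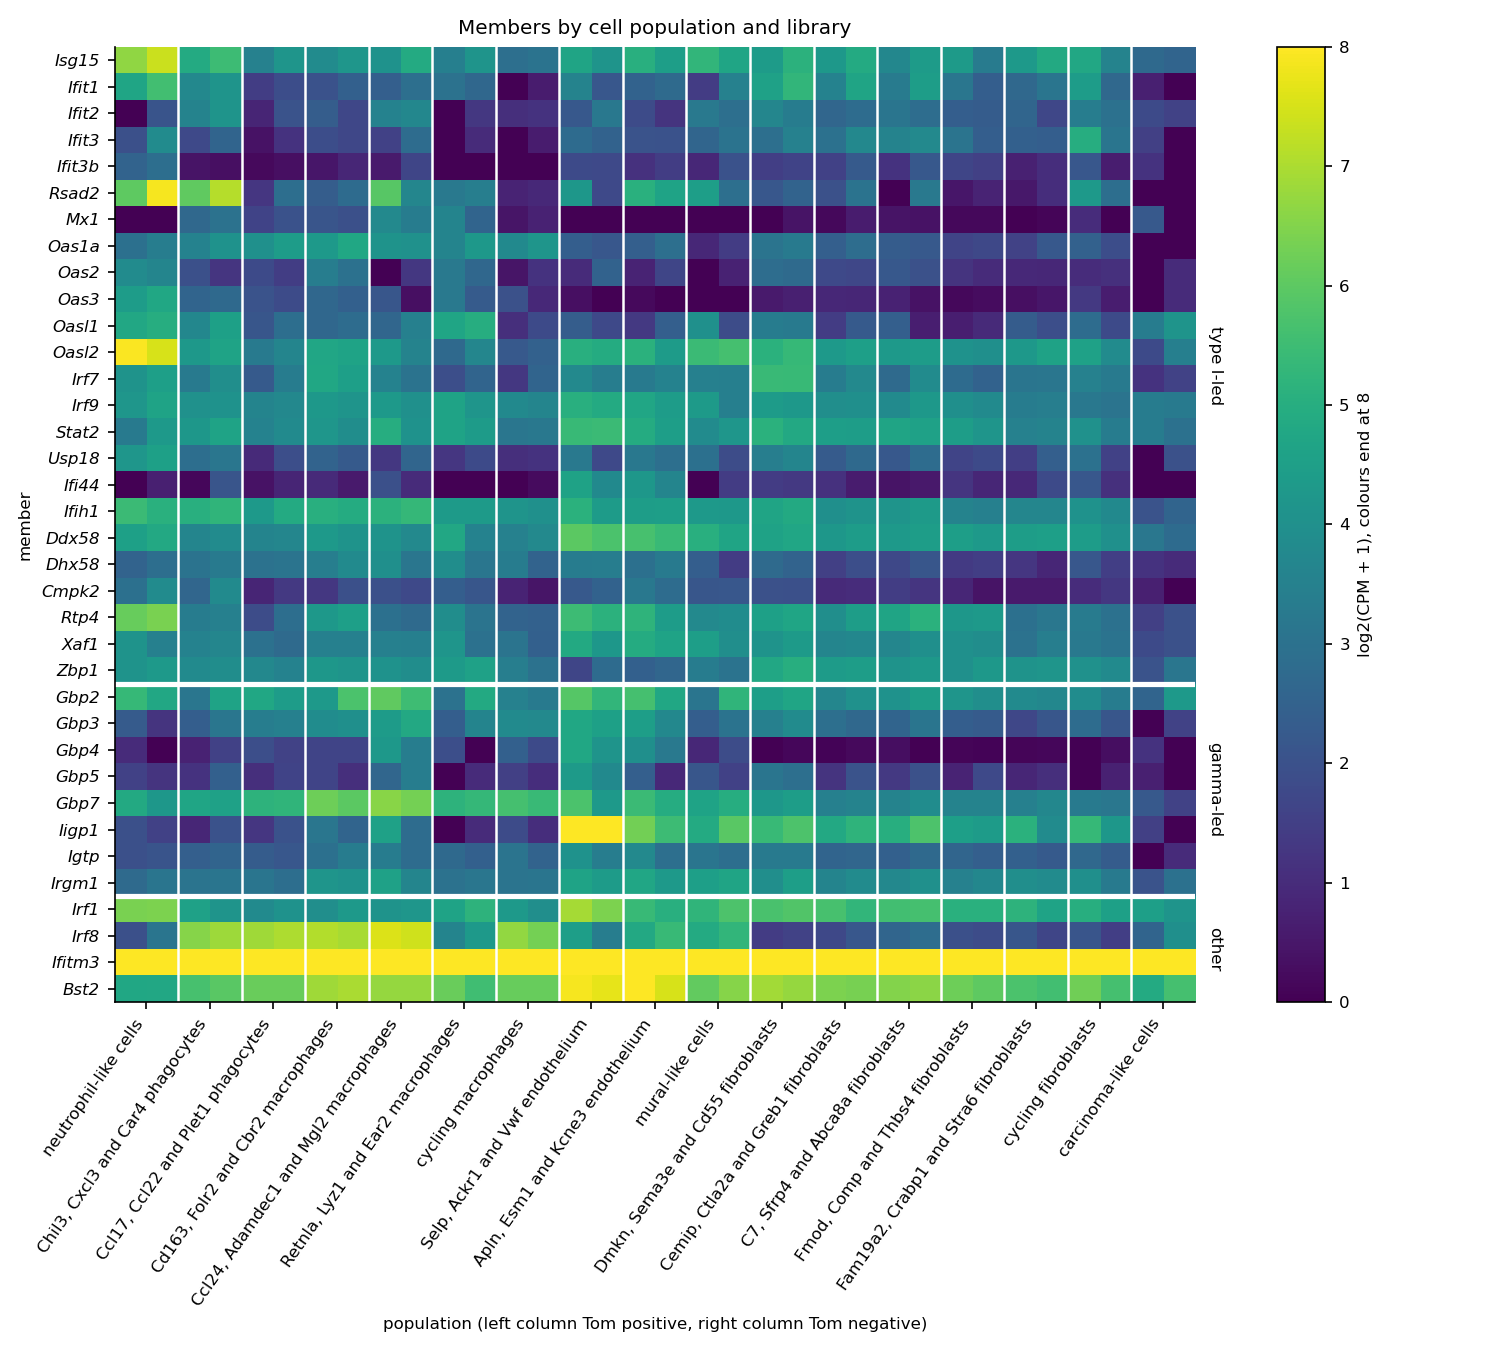
Level of each of the 36 members as log2(CPM + 1) in each population, with the Tom positive library in the left and the Tom negative library in the right column of each pair; colours end at 8. Isg15 and Oasl2 are brightest in neutrophil-like cells in both libraries, and Rsad2 in Tom negative. In Tom positive Rsad2 stands at 65.01 CPM in Chil3 phagocytes and 63.8 CPM in neutrophil-like cells. Iigp1 is brightest in Selp endothelium, Irf8 across the macrophage and phagocyte populations, and Ifitm3 is high everywhere.

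Among antiviral effectors, Isg15, a ubiquitin-like protein that is joined to other proteins, stood at 100.5 CPM (95% interval 82.1 to 122) and 164 CPM (144 to 185) in neutrophil-like cells. The next populations were mural-like cells at 37.3 CPM in Tom positive and Chil3 phagocytes at 44.1 CPM in Tom negative, and the lowest were cycling macrophages at 6.65 and 7.27 CPM. The neutrophil level was apart from the next population by more than counting error in both libraries. Oasl2, a relative of the oligoadenylate synthetases that activate RNase L, stood at 247 and 182 CPM in neutrophil-like cells against 42.4 and 48.9 CPM in mural-like cells, which came next. Rtp4, a chaperone of membrane receptors, was also highest in neutrophil-like cells, at 69.6 and 82.6 CPM, with Selp endothelium next at 43.95 and 34.3 CPM. Usp18, a protease that removes Isg15 and brakes the type I receptor, was at 17.4 and 22.4 CPM in neutrophil-like and 9.62 and 11.6 CPM in Dmkn fibroblasts.

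Rsad2, the enzyme viperin, which makes a chain-ending nucleotide, stood at 65.01 and 136 CPM in Chil3 phagocytes and at 63.8 and 238 CPM in neutrophil-like cells, its highest levels, and at 32.9 and 23.8 CPM in Apln endothelium. Fibroblast-like cells as a class held 2.52 and 4.05 CPM and C7 fibroblasts 0 and 56 UMIs. Cmpk2, a nucleotide kinase whose gene neighbours Rsad2, stood at 5.24 and 13.3 CPM in Chil3 phagocytes and at 6.76 and 13.4 CPM in neutrophil-like cells, and between 1.13 and 1.23 CPM in the fibroblast class. Ifit1, which binds foreign RNA ends, was instead as high in Dmkn fibroblasts (22.7 and 37.4 CPM) as counting error could tell from neutrophil-like cells (25.1 and 46.7 CPM). Its relative Ifit2 was at 0 and 3.2 CPM in neutrophil-like cells and at 10.8 and 16.5 CPM in Chil3 phagocytes.

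The oligoadenylate synthetases did not share one order. Oas3 stood at 20.3 and 26.2 CPM in neutrophil-like cells and at 0.55 and 0.513 CPM in fibroblast-like cells. Oas1a was highest in macrophages marked by Cd163, Folr2 and Cbr2, at 18.5 and 26.1 CPM, and at 6.76 and 9.6 CPM in neutrophil-like cells. Of the 60-base windows at the ends of Oas1a transcripts, 51.3% also occur in other genes, most often Oas1g, so its count may be split between them. Mx1, a dynamin-like GTPase, had 0 UMIs in blood endothelial-like and in neutrophil-like cells of both libraries. In the Tom positive endothelial class a count of 0 allows up to 0.166 CPM, and Ccl24 macrophages held Mx1 at 12.5 and 9.22 CPM.

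Sensors of RNA were found in every class, with different leading cells. Ddx58, the sensor RIG-I, was highest in Selp endothelium (62.3 and 52.1 CPM) and Apln endothelium (49.9 and 42.3 CPM), and at 20.2 and 21.1 CPM in fibroblast-like cells. Ifih1, which senses long double-stranded RNA, was at 42.5 and 32.6 CPM in neutrophil-like cells, which were highest in Tom positive. Ccl24 macrophages, at 34.2 and 39.6 CPM, were highest in Tom negative. Neither lead over the next population exceeded counting error, and the macrophage class stood at 28.3 and 26.2 CPM. Zbp1, a sensor of Z-form nucleic acid, was highest in Dmkn fibroblasts (26.5 and 31.4 CPM) and low in Selp endothelium (2.2 and 5.92 CPM). Ifi44 marked endothelium, at 23.4 and 13.01 CPM in Selp and 17.6 and 11.5 CPM in Apln cells, against 1.26 and 1.35 CPM in fibroblast-like cells.

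Transcription factors of the response were also divided between cell types. Stat2, a part of the type I complex, was at 41.4 and 42.6 CPM in Selp endothelium and 33.3 and 27.2 CPM in Dmkn fibroblasts. Irf7, which drives the alpha interferon genes, reached 41.5 and 40.97 CPM in Dmkn fibroblasts, with Cd163 macrophages next at 26.1 and 22.03 CPM and the fibroblast class as a whole at 10.9 and 15.8 CPM. That gap was larger than counting error in both libraries. Irf1, a factor induced by gamma, was at 120 and 85.2 CPM in Selp endothelium and 82.1 and 83.8 CPM in neutrophil-like cells, and these did not differ beyond counting error in Tom negative. Irf8, a lineage factor of macrophages and dendritic cells, was at 130 and 107 CPM in macrophage-like, 93.4 and 112 CPM in Chil3 and 115 and 128 CPM in Ccl17 phagocytes. In fibroblast-like and neutrophil-like cells Irf8 was between 2.72 and 7.68 CPM.

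Iigp1, a GTPase that attacks the vacuoles of intracellular parasites, stood at 342 CPM (332 to 353) and 318 CPM (281 to 359) in Selp endothelium. The next populations held 77.1 CPM (Apln endothelium, Tom positive) and 61.2 CPM (mural-like cells, Tom negative), and Chil3 phagocytes 0.797 and 3.03 CPM. Fibroblasts were above most myeloid cells, with 30.1 and 30.7 CPM in the class and 40.8 and 53.8 CPM in Dmkn fibroblasts, against 8.8 and 3.55 CPM in macrophage-like cells. An Iigp1 UMI was seen in 87.7% and 79.5% of Selp endothelial cells, or 36.0% and 34.1% after thinning each cell to 2000 UMIs. In Chil3 phagocytes the thinned shares were 0% and 0.245%, and in carcinoma-like cells 0% in both libraries.

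Guanylate-binding proteins, GTPases that coat pathogens and their vacuoles, had another order. Gbp7 was highest in Ccl24 macrophages at 95.4 and 79.8 CPM and in Cd163 macrophages at 73.6 and 61.7 CPM, and stood at 51.9 and 18.9 CPM in Selp endothelium. Gbp2 was at 64.6 and 44.4 CPM in Ccl24 macrophages, 58.0 and 37.9 CPM in Selp endothelium and 14.96 and 16.2 CPM in fibroblast-like cells. Gbp4 and Gbp5 were at 26.3 and 16.6 CPM and at 19.6 and 13.01 CPM in Selp endothelium. In fibroblast-like cells Gbp4 was at 0.0809 and 0.113 CPM, while 39 and 14 T or NK-like cells held it at 26.3 and 18.2 CPM. Of the transcript-end windows of Gbp4, 11.1% also occur elsewhere, in Gbp9 and Gbp6 among others. Irgm1, a regulator among the immunity-related GTPases, lay between 5.8 and 25.5 CPM over the 16 populations in Tom positive. In Tom negative it lay between 6.38 and 24.6 CPM.

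Ifitm3, a membrane protein that blocks viral fusion, was the most abundant member by UMI count, and counts per gene are not scaled to length. It stood at 2089 and 2037 CPM in Selp endothelium, 1583 and 1868 CPM in mural-like and 1162 and 1278 CPM in fibroblast-like cells, and its lowest values among the 16 populations were 381 and 419 CPM. Bst2, or tetherin, which holds budding virions on the cell, was at 235 and 207 CPM in Selp endothelium and 255 and 183 CPM in Apln endothelium. It was lowest in neutrophil-like cells, at 26.1 and 26.9 CPM, the cells in which Isg15 and Oasl2 were highest.

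**Figure D3:**
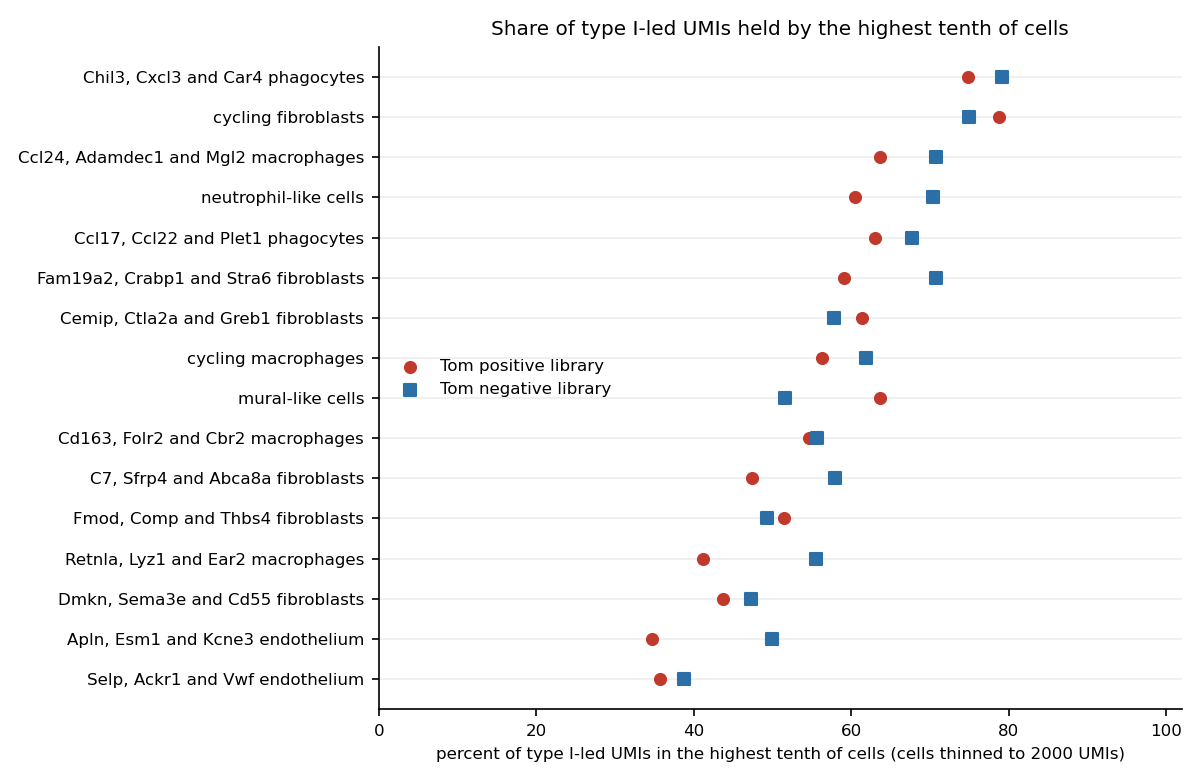
Percent of type I-led UMIs held by the 10% of cells with the most of them, after thinning each cell to 2000 UMIs, by population, for Tom positive (red circles) and Tom negative (blue squares). The share is 74.8% and 79.2% in Chil3 phagocytes and 35.7% and 38.7% in Selp endothelium.

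The same mean level was reached by many cells in some populations and by few in others. After thinning to 2000 UMIs, a type I-led UMI was present in 51.4% (95% Clopper-Pearson interval 45.8 to 56.9) and 52.3% (36.7 to 67.5) of Selp endothelial cells, and the 10% of cells with the most held 35.7% and 38.7% of these UMIs. In Chil3 phagocytes 26.02% (22.2 to 30.1) and 27.5% (23.2 to 32.1) of cells had one, and the 10% with the most held 74.8% and 79.2%. Dmkn fibroblasts were on the side of the endothelium, with 46.02% and 44.2% of cells and 43.8% and 47.3% of UMIs. Neutrophil-like cells had a type I-led UMI in 48.1% and 46.4% of cells, and 14.6% and 16.4% had 3 or more. The 10% of neutrophil-like cells with the most held 60.5% and 70.4% of these UMIs, between the endothelium and Chil3 phagocytes. Carcinoma-like cells had a type I-led UMI in 14.8% and 10.7%. Thinning left out 29 and 83 neutrophil-like cells under 2000 UMIs, and for the other populations named here between 0 and 14 per library.

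Counted without thinning, 31 of 503 and 35 of 418 Chil3 phagocytes held 8 or more of the 24 type I-led members, a limit set after the data were seen. These cells, 6.16% and 8.37% of the population, held 61.9% and 73.02% of its type I-led UMIs. In Dmkn fibroblasts 33.7% and 32.7% of cells passed that limit, with 66.5% and 68.5% of the UMIs. In Selp endothelium 117 of 325 and 4 of 44 did, at median depths over all cells of 29608 and 17257 UMIs, so the limit is not comparable between these libraries. Populations were not matched for depth either. Cells that passed the limit had median depths of 21866 and 23774 UMIs in Chil3 phagocytes, and of 40881.5 and 36817 UMIs in Dmkn fibroblasts.

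Between the libraries, a member is called past when its CPM differed at least 1.5-fold and reached 10 CPM in either, and each count of members stands beside the share of all genes past the same limit. In the fibroblast class, 18 members reached 10 CPM. Of these, 0 were past higher in Tom positive (0.829% of all 8681 genes) and 1 was past lower (1.45%). It was Ifit1, at 10.6 CPM (9.81 to 11.4) and 17.5 CPM (16.7 to 18.4). The mean difference, Tom positive minus Tom negative on the log2 scale, was -0.17 (-0.21 to -0.14) over type I-led and -0.19 (-0.24 to -0.14) over gamma-led members. The other measured members lay inside 1.5-fold, such as Iigp1 (30.1 and 30.7 CPM) and Ddx58 (20.2 and 21.1 CPM).

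Fibroblast subsets moved in different directions for the same gene. Isg15, Ifit1 and Ifit3 were past lower in Cemip fibroblasts (3 members lower against 1.94% of genes, 0 higher against 0.797%) and in Dmkn fibroblasts (3 lower against 1.05%, 0 higher against 1.01%). In Dmkn fibroblasts Ifit3 fell under 10 CPM, and so was not past, without the top cells (6.16 and 9.84 CPM). In Cemip fibroblasts Ifit1 was at 10.8 and 24.6 CPM, a Tom negative level 2.29 times that of Tom positive (1.92 to 2.73). C7 fibroblasts had Isg15, Ifit1, Irf7 and Iigp1 past lower (4 against 3.55%) and 0 higher (2.79%). In Fmod fibroblasts Isg15 was instead past higher, at 19.3 and 9.11 CPM, a ratio of 2.12 (1.72 to 2.62), the only member past of 16 measured (0.999% of genes higher, 1.29% lower). Fam19a2 fibroblasts had 1 member higher (1.05% of genes) and 0 lower (1.35%): Iigp1, at 33.7 and 13.5 CPM, a ratio of 2.5 (2.16 to 2.89). One Tom positive cell held 157 of its 405 UMIs, and without the top cells Iigp1 was at 20.7 and 12.03 CPM, a ratio of 1.72, and Isg15 became past lower at 14.2 and 26.2 CPM. A difference between subsets in these contrasts was not tested.

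In blood endothelial-like cells, 10 of 23 measured members were past higher in Tom positive, against 4.96% of all 9068 genes, and 0 were past lower, against 8.34%. Of the 8 gamma-led members, 7 were among the 10 (Gbp2, Gbp3, Gbp4, Gbp5, Gbp7, Iigp1 and Igtp), joined by Ifi44, Rtp4 and Irf1. Gbp2 stood at 54.8 CPM (51.4 to 58.3) and 29.2 CPM (23.5 to 35.9), a ratio of 1.87 (1.51 to 2.35). Gbp5 stood at 13.9 and 4.18 CPM, from 252 and 13 UMIs, a ratio of 3.33 (1.91 to 6.35). Irgm1, at 24.5 and 18.95 CPM, was the gamma-led member not past. The mean difference was 0.90 (0.75 to 1.05) over gamma-led and 0.175 (0.055 to 0.295) over type I-led members, while the median over all genes was -0.03.

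The endothelial class was a different mixture in each library, which touches these values. Selp endothelium made up 325 of 509 Tom positive cells and 44 of 237 Tom negative cells, and Apln endothelium 184 and 193. For Iigp1, the class ratio of 2.06 (1.85 to 2.3) stood beside 1.08 (0.95 to 1.22) within Selp and 1.77 (1.42 to 2.21) within Apln endothelium. For Gbp2 the ratio was 1.53 (1.07 to 2.26) within Selp and 1.89 (1.43 to 2.54) within Apln endothelium. For Gbp7 it was 2.74 (1.67 to 4.83) and 1.44 (1.1 to 1.9). Over the 8 gamma-led members the mean difference was 0.56 (0.32 to 0.80) within Selp and 0.81 (0.60 to 1.02) within Apln endothelium, so it had the same sign in both. Selp endothelium, with fewer than 50 Tom negative cells, was not counted for members past.

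**Figure D4:**
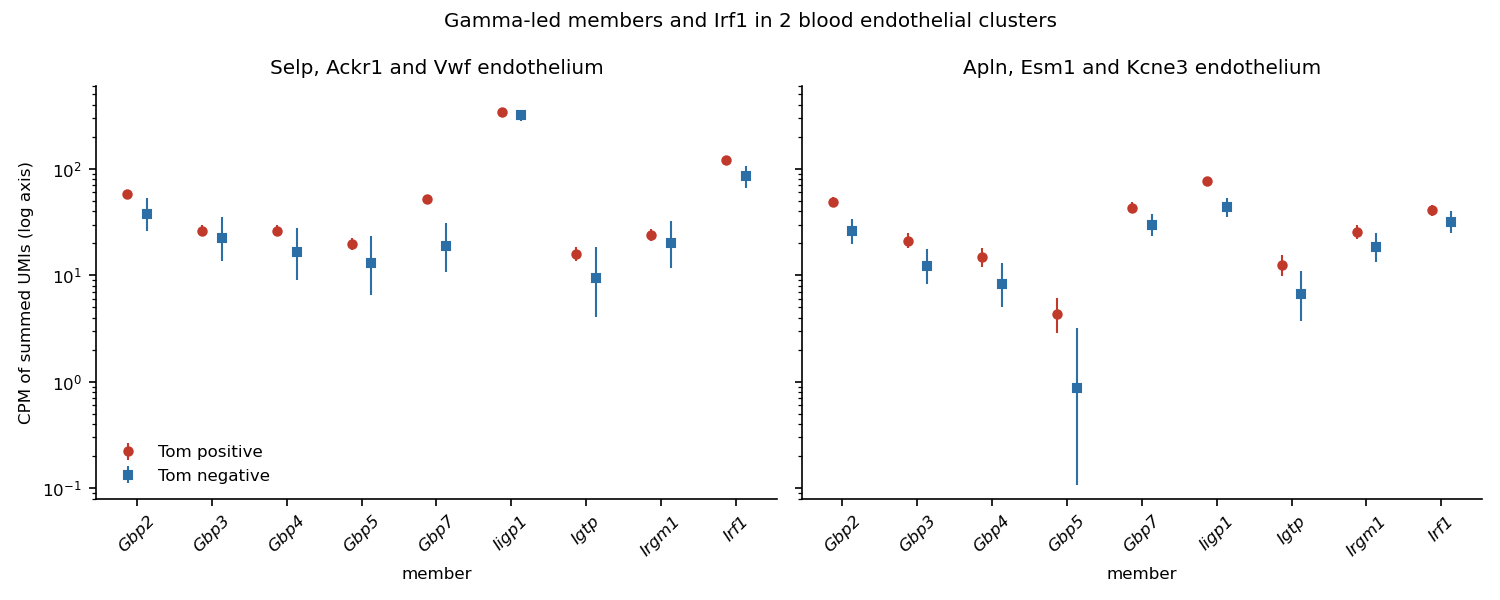
CPM on a log axis of the 8 gamma-led members and Irf1 in Selp (left) and Apln (right) endothelium, with 95% Poisson intervals for counting error, Tom positive in red and Tom negative in blue. All 9 genes are higher in Tom positive in both panels, while Iigp1 lies at 342 and 318 CPM on the left and at 77.1 and 43.6 CPM on the right.

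Apln endothelium alone had 8 of 22 measured members past higher (4.88% of genes) and 0 lower (8.01%): Oasl2, Ifi44, Rtp4, Gbp2, Gbp3, Gbp4, Iigp1 and Igtp. Without the top cells Isg15, Rsad2, Stat2 and Irgm1 were past higher too. Its Tom negative cells were shallow, with a median of 1547 UMIs against 31831, and 118 of 193 carried doubted barcodes. They also held more RNA of other cells, with C1qa at 117 against 48.4 CPM and Col1a1 at 1026 against 532 CPM. Without doubted barcodes the gamma-led difference was 0.87 in Apln endothelium and 0.90 in the class, and with stricter minimums of genes and UMIs it was 0.90 in the class. The part of the depth and of the other cells' RNA in the remaining difference was not tested.

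In the macrophage class, 2 of 20 measured members were past higher (1.59% of genes) and 0 lower (2.09%). These were Irf7, at 17.2 CPM (15.03 to 19.6) and 11.4 CPM (9.87 to 13.1), and Rsad2, at 12.6 and 6.11 CPM. For Rsad2, 100 of the 163 Tom positive UMIs lay in 1 cell, and without the top cell of each library the levels were 4.87 and 4.89 CPM. Cd163 macrophages, the largest subset, had only Gbp2 past lower (1 against 1.53% of genes, 0 higher against 2.1%), at 18.9 and 52.3 CPM. Of its Tom negative UMIs, 134 of 325 lay in 1 cell, and without the top cells Gbp2 was at 16.7 and 30.8 CPM and Isg15 became past lower at 9.69 and 14.5 CPM. Ccl24 macrophages had 7 of 25 past higher (4.42%) and 2 lower (3.63%), on 72 and 145 cells. The 7 were Rsad2, Oasl2, Stat2, Dhx58 (a regulator of RNA sensing), Gbp4, Iigp1 and Irgm1. For Rsad2, 100 of the 124 Tom positive UMIs lay in 1 cell, and without the top cells its levels were 11.7 and 6.36 CPM in place of 59.8 and 11.7. Iigp1 there was at 17.6 and 2.44 CPM without the top cells, a ratio of 7.2 in place of 3.81. The 2 lower, Isg15 and Oasl1, were no longer past without the top cell, where 1 Tom negative cell held 292 of the 1038 type I-led UMIs and all 24 members. In Tom positive 1 cell held 160 of the 655. Cycling macrophages had 0 of 11 past in either direction (2.57% of genes higher, 3.48% lower).

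Chil3 phagocytes had 8 of 22 measured members past lower in Tom positive (2.49% of 7713 genes) and 0 higher (1.7%). Rsad2 was at 65.0 CPM (59.8 to 70.6) and 136 CPM (128 to 144), Isg15 at 28.5 and 44.1 CPM, and Oasl1, an OAS-like gene that restrains Irf7, at 11.96 and 22.2 CPM. The others were Ifit2, Oas1a, Irf7, Cmpk2 and Gbp2, of which Gbp2 was at 7.74 and 23.8 CPM, or 7.18 and 13.6 CPM without the top cells, of which 1 held 84 of the 196 Tom negative UMIs. Without them Rsad2 was at 48.7 and 88.1 CPM and Ifit2 at 4.33 and 12.9 CPM. Few cells held most of these UMIs: 1 cell held 445 of 2735 type I-led UMIs in Tom positive and 1 held 685 of 3862 in Tom negative. Without each member's top cell Oas1a and Cmpk2 were no longer past and Ifit1 became so. The direction of the mean difference, -0.43 (-0.51 to -0.35) for type I-led members, turned to 0.095 when the members took part in the clustering and to 0.62 at a finer clustering, whose Chil3 cluster shared 38 cells with the one described here. With the members in the clustering the count past was 1. For gamma-led members the difference of -0.70 turned to 0.181 and 0.604 under the same clusterings. The related phagocytes marked by Ccl17, Ccl22 and Plet1 had 2 of 15 past lower (1.6% of genes) and 0 higher (0.796%), namely Isg15 at 10.5 and 16.9 CPM and Ifih1 at 18.6 and 28.4 CPM. Ifih1 was no longer past without the top cells.

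Neutrophil-like cells had 6 of 23 measured members past lower (6.01% of 7810 genes) and 2 higher (38%), read against a median of all genes that was itself 0.38 higher in Tom positive. Rsad2 was at 63.8 CPM (49.3 to 81.1) and 238 CPM (215 to 264), from 66 and 372 UMIs, a Tom negative level 3.73 times that of Tom positive (2.87 to 4.93). One Tom positive cell held 38 of the 66 UMIs, and without the top cells the levels were 27.2 and 218 CPM, 8.01 times as high in Tom negative. Isg15 was 1.63 times (1.29 to 2.07) and Ifit1 1.86 times (1.17 to 3.03) as high in Tom negative. Ifit3 had 3 and 21 UMIs, a Tom negative level 4.64 times that of Tom positive with an interval from 1.38 to 24.3, and 11.2 times without the top cells. Cmpk2 and Gbp7 were no longer past without them, while Irf7 and Ifitm3 became past lower. Stat2 and Cmpk2 were past lower and Xaf1, a gene of cell death control, and Gbp7 past higher on 7 to 29 UMIs, with intervals that include 1. Oasl2 was higher in Tom positive, at 247 and 182 CPM, but was not past. Its log2 difference of 0.437 lay near the 0.38 of the median of all genes. With trimmed-mean (TMM) factors, which remove a shift of 0.36 between these libraries, 14 members were past, all lower.

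Cycling fibroblasts show how far 1 cell can carry such a count. On 62 and 136 cells, 10 of 16 measured members were past higher (3.51% of genes) and 0 lower (3.75%). A single Tom positive cell held 533 of the 1046 type I-led UMIs, 23 of the 24 type I-led members and the top count of 27 of the 36 members. Its doublet score was among the highest 10% of its library. Without each member's top cell only Isg15 was still past, with Ifit1 at a ratio of 1.13, Ifit3 at 0.873 and Rsad2 at 0.516.

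**Figure D5:**
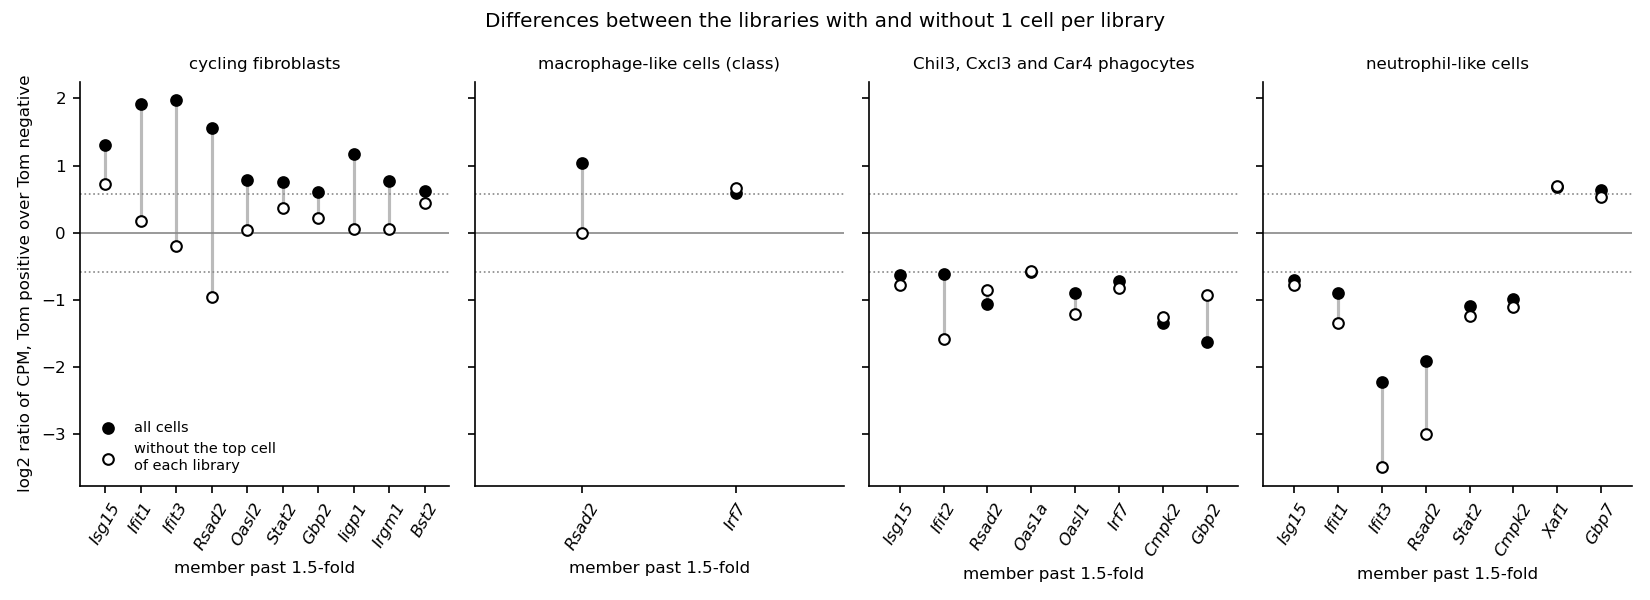
Log2 ratio of CPM, Tom positive over Tom negative, for each member past 1.5-fold in 4 populations, with all cells (filled) and without the cell with the most UMIs of that member in each library (open); dotted lines mark 1.5-fold. In cycling fibroblasts 9 of 10 open points lie between the lines or below 0, while most points of Chil3 phagocytes and neutrophil-like cells stay on their side.

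Ligands were rare among the kept cells. Ifnb1, which encodes beta interferon, had 36 and 68 UMIs in 7 and 13 cells, and 88 of these 104 UMIs lay in Chil3 phagocytes, in 2 and 7 cells. Those cells held a median of 156 (range 47.7 to 264) and 19.1 (range 0.54 to 110) type I-led UMIs per 10000. In Chil3 phagocytes without an Ifnb1 UMI the median was 0.808 and 0.902, above the lowest Tom negative cell with one. The cells with an Ifnb1 UMI held 20.8% and 12.2% of the population's type I-led UMIs. The cell with the most Ifnb1 UMIs held 29 of 31 and 29 of 57. The Tom positive Chil3 phagocyte with the most type I-led UMIs, 445 of its 16854 UMIs, was among the cells of highest doublet score. Of 12 Ifna genes searched, 11 had 0 UMIs in both libraries and Ifna16 had 2. Ifnab, also an alpha interferon gene, had 0 and 5 UMIs. Its 5 UMIs lay in 5 Tom negative cells, and Fam19a2 fibroblasts held the most, 2. Ifng, the gene of interferon gamma, had 63 and 4 UMIs, and 66 of the 67 lay in T or NK-like cells, of which there were 39 and 14. No cluster was named plasmacytoid dendritic, a cell type known for alpha interferon. Its marker Siglech had 18 and 46 UMIs in 4 and 3 cells, and 60 of these 64 UMIs lay in clusters not described here. Ccr9, counted beside it, had 93 and 120 UMIs in 36 and 58 cells. Of these 213 UMIs, 100 lay in clusters not described here.

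Receptors and signalling genes were measured in the same cells. In the fibroblast class Ifngr1 was at 91.4 and 83.8 CPM, Ifnar2 at 88.8 and 88.8, Ifngr2 at 50.1 and 53.99 and Jak1 at 319 and 334 CPM. Of 6 receptor genes, 5 were measured in each class, and 0 were past in fibroblast-like, macrophage-like or blood endothelial-like cells. In that order, 0.829%, 1.59% and 4.96% of all genes were past higher, and 1.45%, 2.09% and 8.34% lower. For 5 genes, 0 past is near these shares. In neutrophil-like cells Ifnar1 was past lower, at 23.2 and 43.5 CPM, beside 6.01% of all genes lower. Past higher there, beside 38% of all genes, were Ptpn6, a phosphatase that restrains signalling, at 146 and 71.7 CPM, the immunoproteasome gene Psmb8 at 71.5 and 27.5 CPM, Ly6e at 190.3 and 115 CPM, the adaptor Myd88 at 35.8 and 17.9 CPM, and on 31 UMIs or fewer per library Tyk2, Irf3, Psmb10, Tap1 and Adar. Past lower were Ifi204, a DNA sensor, at 52.2 and 101 CPM, Isg20, an exonuclease, at 41.5 and 70.4 CPM, and Ifi47 and Herc6 on 17 UMIs or fewer. Among other induced genes listed, blood endothelial-like cells had 9 of 28 past higher, beside 4.96% of all genes, and 2 lower, beside 8.34%. The higher ones included Cxcl10, a chemokine for T cells, at 27.7 and 11.6 CPM, Nlrc5, which drives MHC class I genes, at 25.1 and 8.99 CPM, Cd274, which encodes PD-L1, at 12.7 and 7.07 CPM, and the GTPase genes Gbp8, Gbp9 and Irgm2. The lower ones, Ifitm1 and Ifi27l2a, stood at 5.03 and 28.9 and at 9.45 and 24.7 CPM. For Cxcl10 the endothelial clusters went opposite ways, with 41.8 and 13.01 CPM in Selp and 4.15 and 11.02 CPM in Apln endothelium. So did Cxcl9, its relative, with 27.3 and 1.18 CPM in Selp (310 and 1 UMIs) and 15.6 and 25.1 CPM in Apln endothelium.

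Macrophage-like cells went the other way for the chemokines, with Cxcl9 at 11.04 and 32.5 CPM and Cxcl10 at 11.7 and 25.6 CPM, and with Ciita, which drives MHC class II genes, and the kinase Jak2 also past lower (beside 2.09% of all genes). In the fibroblast class 1 of 22 other induced genes was past, Ifitm1, lower at 6.84 and 13.7 CPM, beside 1.45% of all genes past lower and 0.829% higher. Chil3 phagocytes had 0 of 26 other induced genes past, beside 2.49% of all genes lower and 1.7% higher, and Cxcl10 stood there at 29.03 and 25.9 CPM. In Ccl17 phagocytes 1 of 25 other induced genes was past, Cxcl9, higher at 34.6 and 19.7 CPM, beside 0.796% of all genes higher and 1.6% lower.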

How the data were processed

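The deposited files hold whole-number UMI counts per gene and barcode for 1 Tom positive and 1 Tom negative library. They were made by Cell Ranger 7.0.1 per the file headers, on mm10 per the submitters' processing notes. The annotation and the barcode calling were not given in the sources used here.

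Cells with at least 500 genes, 1000 UMIs and at most 10% mitochondrial UMIs were kept, less doublets called by Scrublet within scanpy 1.11.5. A barcode in both libraries was doubted where the other library held more than 5 times its UMIs or both held under 5000. Both libraries were clustered together on 2000 variable genes, without the members and the pathway list, using 30 principal components, 15 neighbours and Leiden (leidenalg 0.10.2) at resolution 1, which gave 26 clusters. A class name needed 3 markers at 50 CPM. The Chil3 and Ccl17 clusters have no class name, since markers of other classes were among their leading genes.

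In each library, UMIs were added up within a population and scaled to CPM, and the mean over members was taken of log2(CPM + 1). Sequence shared between transcript ends was counted on GENCODE transcripts of mm10. Intervals are exact Poisson, conditional binomial or Clopper-Pearson at 95% (scipy 1.17.1). They cover counting error only, and a count of 0 allows 3 counts. Being past needs 1.5-fold at 10 CPM in populations of at least 50 cells per library. Text names any member, the pathway genes highest in their role or past 1.5-fold, and promoters by the rule given with them. The code was checked on simulated counts. Members and lists were chosen with earlier results of these data known. Alternatives covered cell filters, doubted barcodes, doublet scores, reporter level, thinning, TMM factors (edgeR 4.0.16), pseudocount, clustering and the fold. Leaving out top cells, and leaving doubted barcodes out of Apln endothelium, were added after the data were seen.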

Additional observations from a re-analysis of the deposited data

Results flagged for a closer look

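Blood endothelial-like cells and neutrophil-like cells differed in opposite directions in the type I-led members. The mean log2 difference, Tom positive minus Tom negative, was 0.17 in the first and -0.50 in the second, and these lie 0.671 apart. For the gamma-led members, blood endothelial-like cells stood at 0.90 and Chil3 phagocytes at -0.70, which lie 1.593 apart. The Chil3 value was 0.181 with the members in the clustering and 0.604 at a finer clustering, so its direction depends on how the cells were clustered. With 1 library per group this difference between cell types was not tested in either case.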

How the results depend on the processing

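Of 238 recomputed differences in mean level, 165 moved by less than their counting error, 57 moved by more and 16 changed sign. Of 393 recomputed counts, 307 stayed within 1.5 times the reported one. Of 476 recomputed mean levels, 230 moved by more than their counting error, and 20 of 30 other values moved. In fibroblast-like cells the type I-led difference of -0.174 was -0.273 without the cells of highest doublet score, -0.127 with reporter-high Tom positive cells, -0.214 as a mean over cells, -0.208 and -0.088 with a smaller and a larger pseudocount, -0.217 over members at 10 CPM, and -0.23 without top cells. The gamma-led difference of -0.189 was -0.127 after thinning, -0.252 and -0.082 with the pseudocounts, and -0.12 with Irf1 and Irf8 included. The count of 1 past was 2 without high doublet scores, 2 after thinning and 0 at 2-fold.

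In macrophage-like cells the direction was not stable. The type I-led difference of 0.153 was -0.15 at most 5% mitochondrial UMIs, 0.081 as a mean over cells, 0.255 with the members in the clustering, 0.058 at a coarser clustering and 0.253 over members at 10 CPM. The gamma-led difference of 0.176 was -0.266 at 5% mitochondrial UMIs, -0.025 as a mean over cells and -0.007 over members at 10 CPM. The count of 2 was 5 as a mean over cells and after thinning. It was 1 with stricter gene and UMI minimums, reporter-high cells, members in the clustering, a finer clustering, 2-fold and without top cells.

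In blood endothelial-like cells the type I-led difference of 0.175 was 0.311 without high doublet scores, 0.489 as a mean over cells, 0.371 after thinning, 0.441 over members at 10 CPM and 0.342 without top cells. The gamma-led difference of 0.897 was 1.093 after thinning and 0.622 with the larger pseudocount, and the count of 10 was 3 at 2-fold.

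In Ccl17 phagocytes the type I-led difference of -0.45 was -0.574 without high doublet scores, -0.305 after thinning, -0.647 and -0.162 with the pseudocounts, -0.08 with members in the clustering and -0.273 over members at 10 CPM. The gamma-led -0.038 was 0.167 with members in the clustering and -0.227 at the finer clustering. The count of 2 was 6 after thinning, 1 with reporter-high cells, members in the clustering or without top cells, and 0 at 2-fold. In Chil3 phagocytes the type I-led -0.43 was -0.87 without high doublet scores, -0.524 and -0.246 with the pseudocounts, 0.095 with members in the clustering and 0.623 at the finer clustering. The gamma-led -0.696 was -0.329 after thinning, -0.939 and -0.253 with the pseudocounts, 0.181 with members in the clustering, 0.604 at the finer clustering and -0.482 without top cells. The count of 8 was 1, 5 and 3 with members in the clustering, the finer clustering and 2-fold.

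In neutrophil-like cells the type I-led -0.496 was -0.802 with TMM factors, and the count of 8 was 13 after thinning, 14 with TMM and 3 at 2-fold. In cycling fibroblasts the type I-led 0.73 was -0.069 with members in the clustering and -0.032 without top cells. The gamma-led 0.321 was -0.254 without high doublet scores, -0.106 as a mean over cells, -0.502 after thinning, -0.088 with the smaller pseudocount, -0.265 with members in the clustering and -0.094 without top cells. The cause of these changes was not tested. The Apln cluster did not recur at either other resolution or with members in the clustering, and the Ccl17 and cycling fibroblast clusters did not recur at the coarser one, so these gave no value. No paired analysis was possible because each group has 1 library. Depth limits the Tom negative Apln cells, at a median of 1547 UMIs, and the neutrophil-like cells, where many members rest on fewer than 30 UMIs.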
